A study of Mus musculus with 20 samples.

Results

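The cytosolic ribosomal protein genes were taken by symbol from GENCODE M21 on mm10: protein-coding genes named Rpl or Rps with a number, together with Rplp0, Rplp1, Rplp2 and Rpsa, without the ribosomal S6 kinases (Rps6k) and without symbols marked as pseudogenes. The rule gave 86 genes of the 42890 whose transcripts could be summed, namely 49 of the large subunit, 34 of the small subunit and 3 of the stalk. Of these, 84 reached 1 FPKM (fragments per kilobase of transcript, scaled to the fragments mapped in the library, a level per length) in at least 5 libraries and were tested with 15010 genes in all. The other members, Rpl10l and Rpl39l, stayed between 0 and 0.0532 FPKM and between 0 and 0.270 FPKM. The rule also takes Rps19bp1, which encodes a SIRT1 activator that binds the Rps19 protein, and Rpl7l1, a ribosome assembly factor; neither is a core ribosomal protein.

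Each cytosolic ribosome joins a small subunit, which reads the mRNA, to a large subunit, which forms the peptide bond, and each subunit holds ribosomal RNA and 1 copy of nearly every ribosomal protein. Cells therefore make the proteins in matched amounts, and the short, abundant mRNAs that encode them carry a run of pyrimidines at the 5′ end, the TOP motif, through which mTORC1 controls their translation. Growing cells, among them activated lymphocytes, are known for high ribosomal protein mRNA.

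The libraries came from abdominal aorta of C57BL/6 mice and fall into 4 groups of 5. KO+AngII denotes Rab22a knockout mice given angiotensin II (AngII, the peptide hormone that raises blood pressure through the AT1 receptor) for 14 days at 500 ng per kg per minute. WT+AngII denotes Rab22a wild-type mice given the same infusion, KO+NS knockout mice given saline for 14 days, and WT+NS wild-type mice given saline. Rab22a is a small GTPase of early endosomes, and the series asks whether its loss changes the response of the vessel to AngII. The sources used here do not give how the knockout was made, in which cells it acts, or the sex and age of the mice. The labels number the libraries 1 to 5 within each group and say no more about the animals behind them, so p-values measure the spread between these samples, which may be in part technical. In bulk tissue, fewer cells of a type and less RNA per cell cannot be told apart.

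The deposited FPKM imply between 68747627 and 77391318 reads per library. Rab22a summed over its transcripts was not lower in the knockout, at 8.79 to 10.3 FPKM in KO+AngII, 2.65 to 10.1 FPKM in WT+AngII, 7.51 to 11.1 FPKM in KO+NS and 2.82 to 10.4 FPKM in WT+NS. Its main protein-coding transcript, ENSMUST00000029024, did follow the labels, with 0 to 0.0056 FPKM in the 10 knockout libraries and 1.87 to 8.62 FPKM in the 10 wild-type libraries. A Rab22a transcript annotated for nonsense-mediated decay, ENSMUST00000142820, stood at 7.43 to 11.1 FPKM in the knockout and at 0.162 to 3.61 FPKM in the wild type. The 6 smooth muscle markers were present in every library, with summed levels from 1117 to 6290.1 FPKM. Within both knockout groups the libraries fell apart: KO+NS 1, KO+NS 3 and KO+AngII 4 were high in ribosomal protein mRNA and in lymphocyte markers, and KO+NS 2, 4 and 5 with KO+AngII 1 and 2 were low in both. Beside each comparison, the members' count or median is given where leaving out 1 of these libraries moves it by over 1.5 times.

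The sequence around annotated transcription starts was searched for a pyrimidine run. Where a gene has several annotated starts, the window with the longest run is printed, and its start can lie inside the gene. The start used in the tissue was not mapped here, so a short run does not show that an mRNA lacks the TOP motif. The windows below cover 12 bases before and 18 bases from the annotated start, in RefSeq on GRCm38.p6, 5′ to 3′ on the gene's strand, with the longest pyrimidine run near the start in capitals. Rps19, Rpl28, Rpl35a and Rps28 fell in the knockout on average over both treatments and Rpl18 under AngII, with runs from 4 bases in Rps28 to 13 in Rpl35a, and Rps19bp1 and Rpl3l, the striated muscle paralogue of Rpl3, are shown as members of a different kind. The windows lie at chr7:24884901-24884930 (+), chr7:4792953-4792982 (+), chr16:33056470-33056499 (+), chr7:45718059-45718088 (+), chr17:33824545-33824574 (-), chr15:80264289-80264318 (-) and chr17:24727814-24727843 (+), in the order printed.
Rps19: ggagcggggtgtggagggCTCTCCCacgcg
Rpl28: cctctcgtgTCTCTCTTTCCgtctccggcc
Rpl35a: gggcttgCCTTCCTCTTTCCgccatcttgg
Rpl18: gtctcgcaggccgCTCTTTCCCCgcccact
Rps28: accgcgtgcggTCTCgcgagagcgaaagtg
Rps19bp1: ggcggaagtagCTCgccgcgtgtgggcggg
Rpl3l: tgttctagctctgtcatttgaCCTCTggtg

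Of the 86 members, 66 had a promoter entry. A gene was counted where any of its annotated starts had the feature, so the shares depend on how many starts are annotated. The word CTTTC on the gene's strand, from 20 bases before to 30 bases after the start, was present in 23 of the 66 (34.8%) and in 6.84% of 17426 other protein-coding genes. A pyrimidine run of at least 8 bases near the start was present in 26 members (39.4%), against 13.0% of the others. CCGGAAGT, the core bound by ETS factors, was present on either strand, in the 250 bases before to 50 after the start, in 12 members (18.2%) and in 5.64% of the others. The TATA word TATAAA, in the 50 bases before the start, was found in 1 member (1.52%) and in 3.82% of the others. The base at an annotated start was C in 22 members (33.3%) and in 16.1% of the others. A match is a description of these letters and says nothing of binding or of translation.

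Ribosomal protein genes have many processed pseudogenes, and these bear directly on the values. Sequences at least 95% identical to a member over at least 80% of the copy's length numbered 573, spread over 80 members, and held 16.2% to 18.8% of the family's FPKM in each library. For 7 members (Rpl10l, Rpl17, Rpl21, Rpl23, Rpl29, Rpl7a and Rps27a) the copies summed to more FPKM than the member itself. The stretches below, from GENCODE M21 transcripts, set coding bases of a member beside its most abundant copy, with the bases that differ in capitals. Rps27a (bases 345 to 404, 1 of 467 coding bases different) is set beside Rps27a-ps2 at chr9:83409660-83410126 (+), and Rpl21 (bases 327 to 386, 3 of 480 different) beside Rpl21-ps15 at chrX:151215167-151215649 (-).
Rps27a: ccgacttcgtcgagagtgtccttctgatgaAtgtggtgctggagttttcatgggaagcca
Rps27a-ps2: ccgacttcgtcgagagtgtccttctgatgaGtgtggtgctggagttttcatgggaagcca
Rpl21: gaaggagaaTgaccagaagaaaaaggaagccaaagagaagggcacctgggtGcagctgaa
Rpl21-ps15: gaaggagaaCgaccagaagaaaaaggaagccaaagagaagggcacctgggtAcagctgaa
A read from these stretches can be placed only where it covers a capital, so the levels of these members alone are uncertain.

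Ribosomal protein mRNAs were among the most abundant in the aorta. The median member had a mean of 293 FPKM over the 20 libraries, against 7.09 FPKM for all genes tested and 12.7 FPKM for the 2418 protein-coding genes of like length (501 to 1524 bases), and 68 members exceeded 100 FPKM. Rplp1, an acidic stalk protein that recruits elongation factors, was highest at 1148 FPKM, followed by the large subunit gene Rpl13 (801 FPKM), the stalk base gene Rplp0 (731 FPKM), the large subunit gene Rpl8 (723 FPKM) and the small subunit gene Rps3a1 (688 FPKM). Among the lowest of those tested were Rpl3l (12.6 FPKM), Rpl21 (15.3 FPKM), Rps19bp1 (16.5 FPKM) and Rpl29 (23.1 FPKM). Copies held 722 FPKM for Rpl21 and 180 FPKM for Rpl29, so the low rank of these members is not a measure of family output. The remaining stalk gene, Rplp2, averaged 315 FPKM, and Rpsa, which encodes the small subunit protein that also acts as a laminin receptor, 447 FPKM.

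Where a gene has a paralogue, the common form was usually the abundant one. Rpl3 averaged 452 FPKM and Rpl3l 12.6 FPKM, Rpl10 304 FPKM and the testis form Rpl10l 0.0065 FPKM, and Rpl39 131 FPKM and the testis form Rpl39l 0.0659 FPKM. Rpl22 (67.2 FPKM) and Rpl22l1 (80.6 FPKM), and likewise Rpl36a (166 FPKM) and Rpl36al (187 FPKM), were close to each other. Rps27 averaged 362 FPKM, the p53-induced Rps27l 82.4 FPKM and the retrocopy Rps27rt 88.3 FPKM. Rpl3l was high in the libraries with the most skeletal muscle marker RNA. In KO+AngII it stood at 35.7, 0.735, 0.00973, 2.34 and 0.0485 FPKM, in WT+AngII at 0.0752, 28.8, 7.66, 5.91 and 0.237 FPKM, in KO+NS at 18.5, 0, 0, 38.9 and 23.1 FPKM, and in WT+NS at 1.55, 15.8, 0.0789, 0.0471 and 71.6 FPKM. The summed level of 6 skeletal muscle markers ranged from 4.9 to 2949 FPKM in KO+AngII, 7.57 to 3035 FPKM in WT+AngII, 3.09 to 3508 FPKM in KO+NS and 5.37 to 5076 FPKM in WT+NS, with Myh1, Myh4 or Tnnt3 at 0 in 8 libraries.

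Summed over the 86 members, the level was 14932, 15961, 18721, 29501 and 19741 FPKM in KO+AngII, 30091, 38696, 22059, 30716 and 36794 FPKM in WT+AngII, 35406, 15842, 40038, 16455 and 14968 FPKM in KO+NS, and 25897, 24925, 30811, 32134 and 23249.6 FPKM in WT+NS. Under AngII, 4 of the 5 knockout libraries lay below every wild-type library, and KO+AngII 4 lay among the wild-type values. Under saline the knockout libraries split to both sides of the wild type, with 3 below and 2 above all WT+NS libraries. The means were 19771 ± 5782 FPKM in KO+AngII and 31671 ± 6546 FPKM in WT+AngII, and 24542 ± 12155 FPKM in KO+NS and 27403 ± 3862 FPKM in WT+NS (SD, n = 5 each). The members took from 3.17% to 8.34% of all FPKM in a library.

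**Figure D1:**
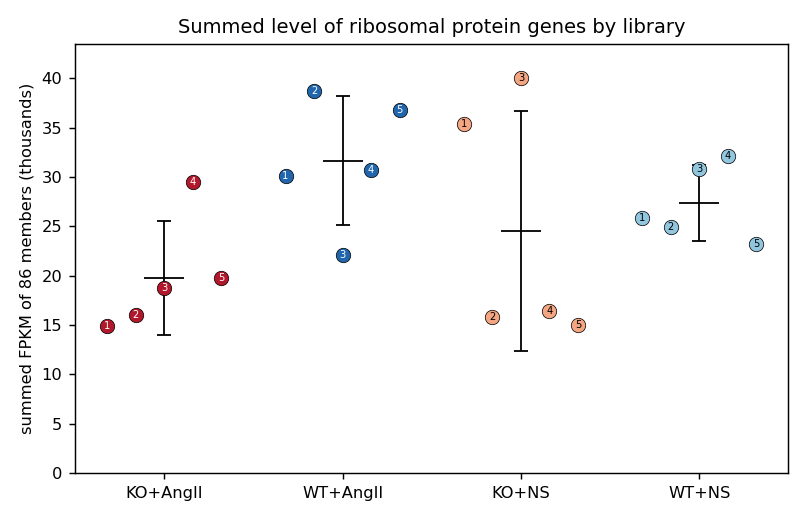
Summed FPKM of the 86 ribosomal protein genes, in units of 1000 FPKM (y axis), in each library of the 4 groups (x axis), with points numbered by replicate and bars at the mean ± SD (n = 5). KO+AngII has 4 libraries between 14932 and 19741 FPKM and 1 at 29501 FPKM, and KO+NS splits into 3 low and 2 high libraries.

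Averaged over both treatments, the knockout had lower ribosomal protein mRNA than the wild type, by a median log2 difference of -0.44 over the 84 members tested, and 82 of the 84 lay below 0. The quartiles of the members were -0.60 and -0.36. The median over all genes tested was -0.07 and over the genes of like length -0.22, with 61.3% and 83.6% of them below 0. With limma on log2(FPKM + 1) and Benjamini-Hochberg adjustment over 15010 genes, 10 members fell and 0 rose, which is 11.9% of the 84. The background was 3.2% of all genes called lower, 0.953% called higher (4.15% in either direction) and 9.59% of the genes of like length called lower, so the share of members called is near that of genes of their length. Among the other protein-coding genes, 5.80% of those under 500 bases and 14.0% of those of 500 to 1000 bases were called lower. At an unadjusted p under 0.05, 46 members (54.8%) passed, against 20.2% of all genes and 35.2% of the genes of like length. Voom on recovered reads called 9 members, and its share over all genes is not given here.

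The 10 members that fell on average over both treatments were 6 of the small subunit group and 4 of the large subunit group. Rps19, needed for maturation of the small subunit RNA and mutated in human Diamond-Blackfan anaemia, fell to 0.529 of the wild-type level (log2 difference -0.92 ± 0.19 SE, adjusted p = 0.0141). Rps28 (log2 difference -0.91, adjusted p = 0.0261), Rps29 (-0.69, 0.0498) and Rps2 at the mRNA entry site (-0.59, 0.0332) are also small subunit proteins among them. Of the large subunit, Rpl28 fell to 0.624 of the wild-type level (log2 difference -0.68 ± 0.16, adjusted p = 0.0212), with Rpl31 near the peptide exit tunnel (-0.64, 0.0329), Rpl35a, another Diamond-Blackfan gene (-0.61, 0.0416), and Rpl36al (-0.49, 0.0445). Rps19bp1 was also among the 10, and its difference was -0.40 ± 0.09 (adjusted p = 0.0199). Rpl31 shares 25.3% of its exon bases with Tbc1d8 on the opposite strand and Rpl36al shares 24.5% with Gm49383 on its own, and whether reads were assigned by strand is unknown here. Smaller overlaps on the opposite strand were those of Rpl28 with Ube2s (9.95%), Rps28 with Kank3 (5.12%) and Rps2 with Snhg9 (0.765%). Of members called under AngII, Rpl18 overlaps Sphk2 (9.23%) and Rps27a overlaps Clhc1 (8.11%) in the same way.

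The values per library show where the calls come from. Rps19 (chr7:24884371-24889806, +) stood at 146, 186, 203, 334 and 210.1 FPKM in KO+AngII and at 510.4, 668, 370.0, 494 and 551 FPKM in WT+AngII, and at 417, 214, 527, 232 and 194 FPKM in KO+NS and 422, 361, 463, 563 and 358 FPKM in WT+NS. The groups did not overlap under AngII, while under saline 2 knockout libraries lay among the wild type and 3 below it. Rps28 (chr17:33819027-33824562, -) was at 74.3, 94.5, 79.1, 134 and 108 FPKM in KO+AngII, 192, 258, 134, 163 and 254 FPKM in WT+AngII, 121, 83.7, 202, 66.5 and 41.8 FPKM in KO+NS, and 145, 158, 147, 194 and 149 FPKM in WT+NS. Again the highest knockout values were KO+AngII 4 and KO+NS 3, and KO+AngII 4 came just under WT+AngII 3. Rps2 (chr17:24718116-24721929, +) had 404, 397, 410.2, 614 and 459 FPKM in KO+AngII, 769, 997, 648, 786 and 787 FPKM in WT+AngII, 825, 461, 791, 479.7 and 369 FPKM in KO+NS, and 726, 562, 724, 857 and 766 FPKM in WT+NS. Under saline, its 2 high knockout libraries lay within the wild-type range and the other 3 below it. Rps19bp1 (chr15:80260615-80264315, -) behaved otherwise, with 10.4, 13.5, 12.2, 14.4 and 13.4 FPKM in KO+AngII, 19.9, 15.4, 16.1, 20.8 and 17.9 FPKM in WT+AngII, 13.8, 17.6, 17.1, 15.97 and 12.8 FPKM in KO+NS, and 17.5, 20.6, 15.6, 22.4 and 23.5 FPKM in WT+NS. Its knockout values were close together in both treatments, with no high library apart.

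Other members called on average had a similar layout. Rps29 (chr12:69157722-69159186, -) averaged 109 ± 39.2 FPKM in KO+AngII, 190.0 ± 46.8 FPKM in WT+AngII, 119.8 ± 53.8 FPKM in KO+NS and 164 ± 18.8 FPKM in WT+NS (SD, n = 5 each, as for the next 3 genes). Rpl31 (chr1:39367842-39371911, +) averaged 179 ± 47.8 FPKM in KO+AngII, 317 ± 61.8 FPKM in WT+AngII, 224 ± 91.1 FPKM in KO+NS and 289.7 ± 34.3 FPKM in WT+NS. In both of these the spread was widest in KO+NS, where libraries 1 and 3 stood apart from 2, 4 and 5. Rpl35a (chr16:33056453-33060189, +) averaged 182 ± 45.9 FPKM in KO+AngII, 302 ± 49.6 FPKM in WT+AngII, 207 ± 92.9 FPKM in KO+NS and 271 ± 31.8 FPKM in WT+NS. Rpl36al (chr12:69182731-69184083, -) averaged 140.4 ± 26.3 FPKM in KO+AngII, 231 ± 40.4 FPKM in WT+AngII, 175 ± 55.3 FPKM in KO+NS and 202 ± 10.1 FPKM in WT+NS. Just outside the threshold lay Rpl18 (log2 difference -0.75, adjusted p = 0.0533) and Rpl36 of the large subunit (-0.54, adjusted p = 0.0553).

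**Figure D2:**
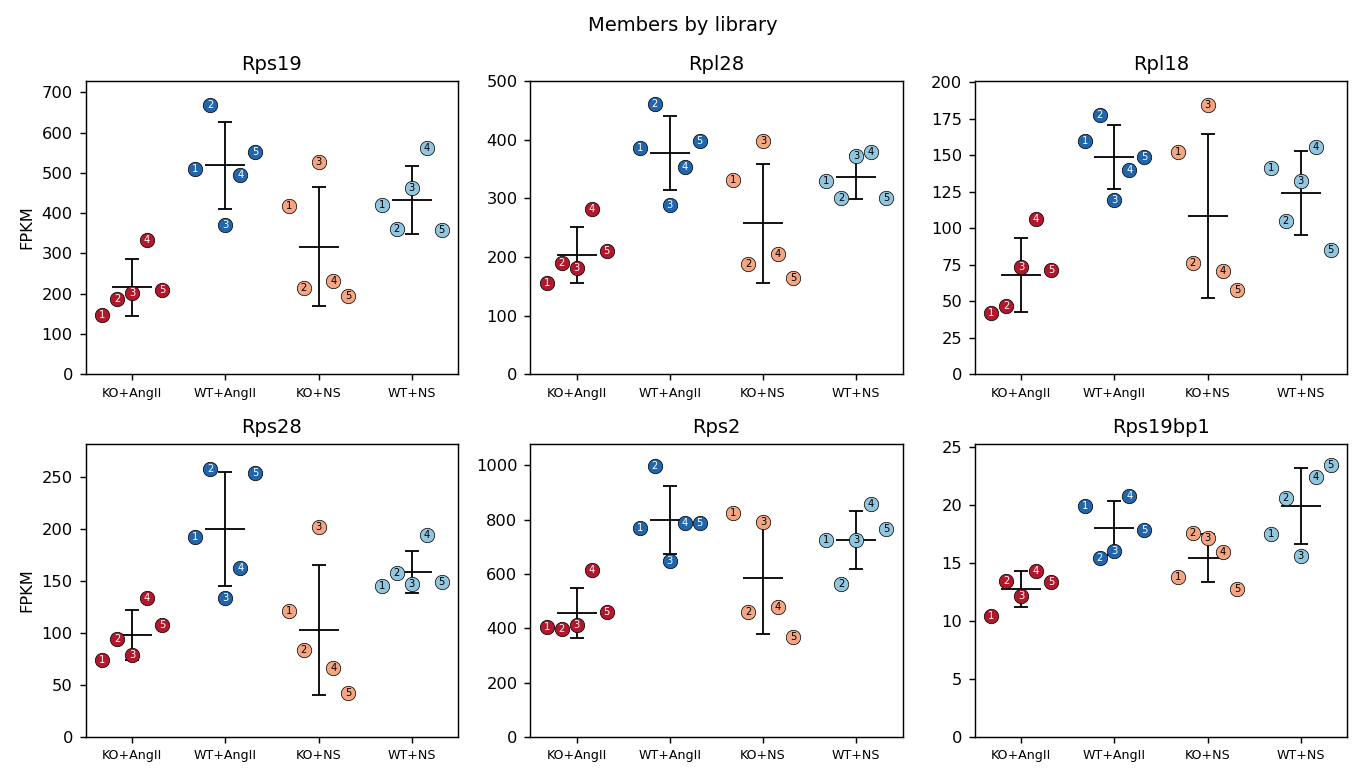
FPKM (y axis) of Rps19, Rpl28, Rpl18, Rps28, Rps2 and Rps19bp1 in each library of the 4 groups (x axis), with points numbered by replicate and bars at the mean ± SD (n = 5). All 6 genes have KO+AngII entirely below WT+AngII, and in all but Rps19bp1 the KO+NS libraries 1 and 3 stand above libraries 2, 4 and 5.

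The number of members called depended on single libraries. It was 32 without KO+NS 3, 19 without KO+NS 1, 18 without KO+AngII 4 and 17 without WT+AngII 3. It was 3 to 6 when any one of KO+AngII 1, 3 or 5, KO+NS 2, 4 or 5, WT+AngII 1, 2 or 4, or WT+NS 1, 3, 4 or 5 was left out. The share of all genes called in these fits is not given here, so the changes in count may not be particular to the members. The median difference of the members stayed between -0.54 and -0.37 in these fits. Rps19, Rps19bp1 and Rpl28 passed in all 20 of them.

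Under AngII, the knockout was lower than the wild type by a median log2 difference of -0.64 over the members, with 81 of 84 below 0 and quartiles of -0.83 and -0.50. The median was -0.10 over all genes tested and -0.30 over the genes of like length. By limma 4 members fell, Rps19, Rps27a, Rpl28 and Rpl18, which is 4.76% of the 84, and 0 rose. The background was 1.44% of all genes called lower, 0.393% called higher (1.83% in either direction) and 4.76% of the genes of like length called lower. Among the other protein-coding genes, 1.45% of those under 500 bases and 6.92% of those of 500 to 1000 bases were called lower. At an unadjusted p under 0.05, 50 members (59.5%) passed, against 17.3% of all genes and 29.98% of the genes of like length, and voom called 0. Without overlap between the groups, 8 members lay lower in the knockout (Rpl18, Rpl28, Rpl7l1, Rps14, Rps19, Rps19bp1, Rps2 and Rps28), where 3.84% of all genes did so.

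Rps19 fell to 0.409 of the wild-type level under AngII (log2 difference -1.29 ± 0.27, adjusted p = 0.0276), from means of 216 ± 70.4 FPKM in KO+AngII and 519 ± 107 FPKM in WT+AngII. Rpl28, of the large subunit (chr7:4792874-4795066, +), had 156, 189.7, 181, 282 and 210.0 FPKM in KO+AngII and 386, 461, 288, 353 and 397 FPKM in WT+AngII. The groups came closest between KO+AngII 4 and WT+AngII 3, and the log2 difference was -0.90 ± 0.22 (adjusted p = 0.0466). Rpl18, also of the large subunit (chr7:45715457-45720836, +), had 41.9, 46.7, 73.5, 106 and 71.1 FPKM in KO+AngII and 159.7, 177, 119, 139.6 and 149 FPKM in WT+AngII. Its log2 difference was -1.19 ± 0.30, with an adjusted p just under the threshold of 0.05. Rps2 (-0.81) and Rpl36al (-0.71) lay just outside, at an adjusted p of 0.0542 each.

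Rps27a, which encodes ubiquitin fused to a small subunit protein, passed with the largest difference of the 4, and its values show another pattern. It stood at 1.65, 2.15, 18.1, 17.5 and 3.14 FPKM in KO+AngII and at 25.5, 43.8, 12.6, 336 and 363 FPKM in WT+AngII, so that 2 wild-type libraries carry it. In the same libraries Rps27a-ps2, which differs by 1 base over the coding stretch compared, had 205, 268, 151, 64.9 and 127 FPKM in WT+AngII, with its lowest values where Rps27a was highest. With its 10 copies added, Rps27a stood at 124, 128, 176, 267 and 169 FPKM in KO+AngII and 273, 373, 191, 414 and 513 FPKM in WT+AngII, and its log2 difference was -1.0005 (adjusted p = 0.098) in place of -3.46 alone. Rps27a is therefore reported as uncertain, and with copies added to every member the test called 2 members.

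The 4 calls under AngII also rested on single libraries. The count was 13 without KO+AngII 4, 12 without KO+NS 3, 10 without WT+AngII 3, 8 without KO+NS 1 and 6 without KO+NS 5. It was 0 without any one of KO+AngII 1, 2, 3 or 5 or of WT+AngII 1, 2 or 4, and 1 or 2 without each of the rest. Libraries of the saline groups enter this count because all 4 groups share 1 estimate of spread. Here too the share of all genes called in each fit is not given. The median of the members stayed between -0.79 and -0.56.

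Under saline, 78 of 84 members had a lower mean log2 level in the knockout, with a median log2 difference of -0.27 (quartiles -0.37 and -0.15), against -0.04 over all genes tested and -0.16 over the genes of like length. The knockout was lower for 57.1% of all genes tested and 74.0% of the genes of like length. The limma test called 0 members and voom 0, and 7 had an unadjusted p below 0.05. The background was 0.0133% of all genes called and 7.37% at the unadjusted p, where the members' share of 8.33% lay below the 13.4% of the genes of like length. Leaving out 1 library moved the members' median by over 1.5 times for each of the KO+NS libraries, to -0.43 without KO+NS 1, -0.14 without KO+NS 2, -0.47 without KO+NS 3, -0.16 without KO+NS 4 and -0.13 without KO+NS 5. The smallest p-values belonged to Rps19bp1 (log2 difference -0.34), Rps28 (-0.81), Rps14 of the small subunit (-1.60), Rps27l (-0.34), Rpl38 (-0.57) and Rpl35a (-0.49), at adjusted p-values of 0.558 or more. Rps14 had 177, 45.6, 244, 53.8 and 67.5 FPKM in KO+NS and 112, 801, 1012, 261 and 80.9 FPKM in WT+NS, so the wild-type libraries spread more widely than the knockout ones, and its difference was -1.02 with copies added. No member separated the groups completely under saline, as 1.02% of all genes did.

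**Figure D3:**
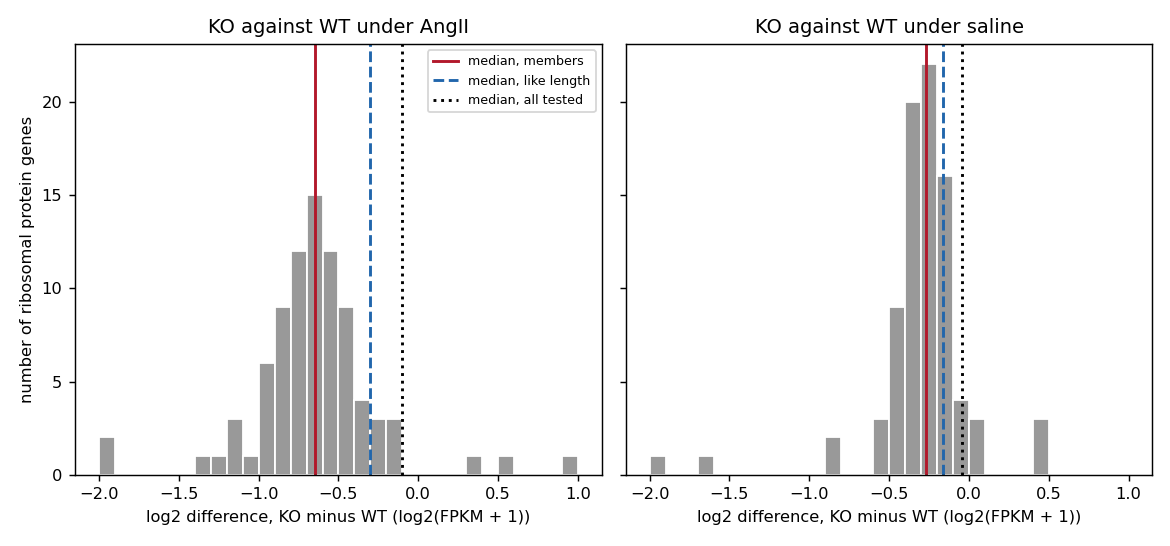
Number of ribosomal protein genes (y axis) by log2 difference, knockout minus wild type (x axis, log2(FPKM + 1) scale), under AngII and under saline, with lines at the median of the 84 members, of genes of like length and of all genes tested. The members centre at -0.64 under AngII and -0.27 under saline, left of both other medians. Values beyond the axis are drawn in the end bins (Rps27a, Rpl17 and Rpl29 under AngII, Rpl29 under saline).

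The large and the small subunit had close medians, and the difference between them was not tested. Averaged over both treatments the median difference was -0.43 for the 47 large subunit genes tested, -0.44 for the 34 small subunit genes and -0.53 for the 3 stalk genes. Under AngII these medians were -0.63, -0.69 and -0.73, and under saline -0.24, -0.31 and -0.33. Rplp1 illustrates the stalk, with 542, 671, 703, 1277 and 820.4 FPKM in KO+AngII, 1466, 1848, 1017, 1411 and 1727 FPKM in WT+AngII, 1441, 694, 1738, 704 and 607 FPKM in KO+NS, and 1227, 1114, 1406, 1423 and 1120.2 FPKM in WT+NS. None of the 3 stalk genes passed the adjusted test in either treatment or on average, and 2 of them reached an unadjusted p under 0.05 on average and under AngII.

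Between AngII and saline, no member passed the adjusted test. Averaged over both genotypes the median log2 difference of the members, AngII minus saline, was 0.00, with 42 higher and 42 lower. By limma 0 members passed, 2 had an unadjusted p under 0.05 and voom called 0, and the background was 0% of all genes called and 3.41% at the unadjusted p. Rpl37, of the large subunit, had the smallest p, with a log2 difference of 0.32 (adjusted p = 1.00). It had 44.6, 37.3, 42.3, 56.0 and 46.4 FPKM in KO+AngII, 61.8, 39.7, 45.0, 50.2 and 61.5 FPKM in WT+AngII, 40.4, 50.1, 25.2, 28.3 and 33.0 FPKM in KO+NS, and 40.6, 49.8, 36.9, 42.8 and 41.4 FPKM in WT+NS. The groups overlap in both genotypes, and 27.5% of its FPKM came from protein-coding transcripts, the lowest share of the members.

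Within the knockout, the median log2 difference of the members was -0.20 (71 of 84 lower under AngII), against -0.06 over all genes tested and -0.06 over the genes of like length. Within the wild type it was 0.18 (80 of 84 higher under AngII), against 0.02 and 0.09. In the knockout, 61.3% of all genes tested and 62.6% of the genes of like length were lower under AngII. In the wild type, 46.4% and 30.5% were lower, against 4.76% of the members. By limma and by voom 0 members passed in either genotype, with 2 at an unadjusted p under 0.05 in each, where 3.96% of all genes had such a p in the knockout and 3.05% in the wild type, and 0% were called. In the knockout the smallest p-values were those of Rpl37 (log2 difference 0.38), Rpl7a (1.95, and -0.09 with copies added), Rps19bp1 (-0.26), Rpl18 (-0.59) and Rps19 (-0.49). In the wild type they were those of Rps27a (2.48, and 0.49 with copies added), Rpl29 (-2.65, and 0.06 with copies added), Rpl30 (0.68) and Rpl37 (0.27). The adjusted p was 0.99 or more for all of these.

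These medians also rested on single libraries. That within the knockout was 0.01 without KO+NS 3, -0.02 without KO+NS 1 and -0.11 without KO+AngII 1. It was -0.34 without KO+AngII 4, -0.32 without KO+NS 2, -0.30 without KO+NS 4 and -0.34 without KO+NS 5. The median within the wild type was 0.10 without WT+AngII 2 and 0.31 without WT+AngII 3. Averaged over both genotypes it ranged from -0.07 to 0.10 when 1 library was left out, so it had no stable sign.

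The difference between the AngII effects of the genotypes, knockout minus wild type, had a median of -0.40 over the members, -0.07 over all genes and -0.15 over the genes of like length, and 77 of 84 members lay below 0. Of all genes tested 59.0% lay below 0, and of the genes of like length 68.8%. This interaction gave 0 calls among the members by limma and by voom, 2 at an unadjusted p under 0.05, and a background of 0% called and 3.34% at the unadjusted p. Its median was -0.23 without KO+NS 1, -0.18 without KO+NS 3 and -0.55 without KO+AngII 4. The means of 78 members were highest in WT+AngII and those of 74 were lowest in KO+AngII. The share of all genes with either order is not given here, and the members moved together from library to library.

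The 2 members at an unadjusted p under 0.05 in the interaction were Rps27a (log2 difference -3.89) and Rpl29 (4.52), both with abundant copies. Rpl29, of the large subunit, had 0.958, 44.5, 76.4, 1.84 and 86.8 FPKM in KO+AngII, 4.46, 1.36, 4.81, 1.15 and 1.97 FPKM in WT+AngII, 3.34, 7.55, 28.6, 0.5003 and 0.57 FPKM in KO+NS, and 21.2, 131, 15.6, 2.46 and 26.2 FPKM in WT+NS. With its 32 copies added it stood at 119.8 to 240.3 FPKM in KO+AngII, 174 to 264 FPKM in WT+AngII, 122 to 306 FPKM in KO+NS and 153 to 244 FPKM in WT+NS, and its interaction was -0.02. That of Rps27a was -0.74 with copies. Rpl17, of the large subunit, had the widest spread of the members within groups (pooled SD 3.23 on the log2 scale) and ranged from 0.277 to 51.9 FPKM in KO+AngII, 0.526 to 377 FPKM in WT+AngII, 0.372 to 254 FPKM in KO+NS and 0.234 to 138 FPKM in WT+NS. Its 24 copies averaged 609.7 FPKM. Rpl7a, also of the large subunit, shows the same contrast: alone it ranged from 4.62 to 151 FPKM, and with its 33 copies from 294 to 657 FPKM.

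**Figure D4:**
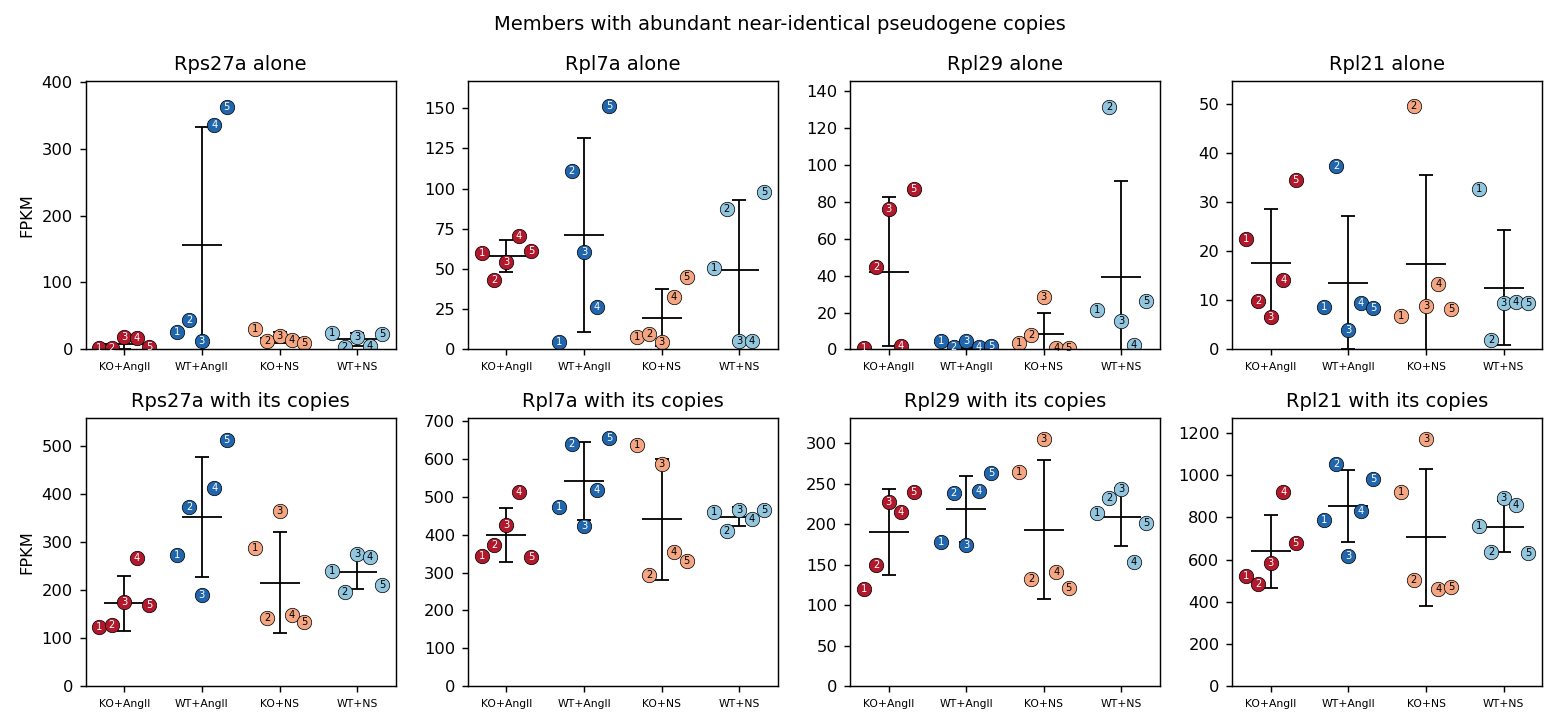
FPKM (y axis) of Rps27a, Rpl7a, Rpl29 and Rpl21 in each library of the 4 groups (x axis), counted alone (upper row) and with their near-identical copies added (lower row), with points numbered by replicate and bars at the mean ± SD (n = 5), cut off at 0. Alone, single libraries stand many-fold apart within a group. With copies added, the fold range over all libraries is smaller, while the range in FPKM can be larger.

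Within groups, the members moved together from library to library. For 66 of the 84 members the deviation from the group mean had a Pearson r above 0.8 with the median deviation of the other members, over 20 libraries that share depth and dissection, and the median r was 0.960. Rpl32 (0.994) and Rps18 (0.991) were closest to the family. For 10 members r was under 0.5, among them Rpl7a, Rpl3l, Rps27l, Rpl37, Rpl21, Rpl29, Rps19bp1, Rpl17 and Rps27a. With copies added, 73 members exceeded 0.8 and 4 stayed under 0.5, among them Rpl3l, Rps27l and Rps19bp1. The pooled within-group SD of a member was 0.47 on the log2 scale at the median, against 0.35 for all genes tested and 0.34 for genes of like length.

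Markers of lymphocytes and of macrophages were high in the libraries with high ribosomal protein mRNA. Over the deviations of the 20 libraries from their group means, where both measures come from the same libraries and the KO+NS libraries lie far apart, the members' median had a Pearson r of 0.912 with the lymphocyte markers, 0.883 with the macrophage markers, -0.684 with the brown adipocyte markers and -0.347 with the smooth muscle markers, given as a description. High r was not confined to cell markers: it was 0.929 with other TOP mRNAs and translation factors, 0.918 with ribosome assembly genes and 0.772 with genes of like length. With mitochondrial ribosomal protein genes r was -0.448, and with oxidative phosphorylation subunits -0.600. The mean log2(FPKM + 1) of 12 B, plasma, T and NK cell markers was 1.11, 0.90, 4.09, 5.08 and 3.25 in KO+AngII, 4.40, 5.05, 4.57, 4.80 and 5.47 in WT+AngII, 5.62, 1.56, 5.81, 2.07 and 0.96 in KO+NS, and 4.80, 4.26, 5.01, 5.32 and 3.11 in WT+NS. The 5 libraries under 2.5 on this scale, all from knockout mice, were also the 5 with the lowest summed ribosomal protein level. All 6 B and plasma cell markers and all 6 T and NK cell markers had lower averages in the knockout over both treatments, of which 1, the immunoglobulin joining chain gene Jchain, passed the test (log2 difference -3.06, adjusted p = 0.0119). The 6 B and plasma cell markers summed to 8.63 to 320.1 FPKM in KO+AngII, 261 to 581 FPKM in WT+AngII, 6.07 to 646 FPKM in KO+NS and 95.1 to 597 FPKM in WT+NS. The 6 T and NK cell markers summed to 4.51 to 175 FPKM in KO+AngII, 91.0 to 179.6 FPKM in WT+AngII, 6.28 to 348 FPKM in KO+NS and 29.1 to 179 FPKM in WT+NS. None of these markers was at 0 in any library. The 6 macrophage markers were lower in the knockout without passing the test, with summed levels of 224 to 1349.9 FPKM in KO+AngII, 716 to 2278 FPKM in WT+AngII, 277 to 2007 FPKM in KO+NS and 441 to 1002 FPKM in WT+NS. The 5 brown adipocyte markers, of which 4 were lower on average and 0 passed by limma (1 at an unadjusted p under 0.05), summed to 853 to 2801 FPKM in KO+AngII, 667 to 1972 FPKM in WT+AngII, 238 to 1818 FPKM in KO+NS and 702 to 2141 FPKM in WT+NS.

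**Figure D5:**
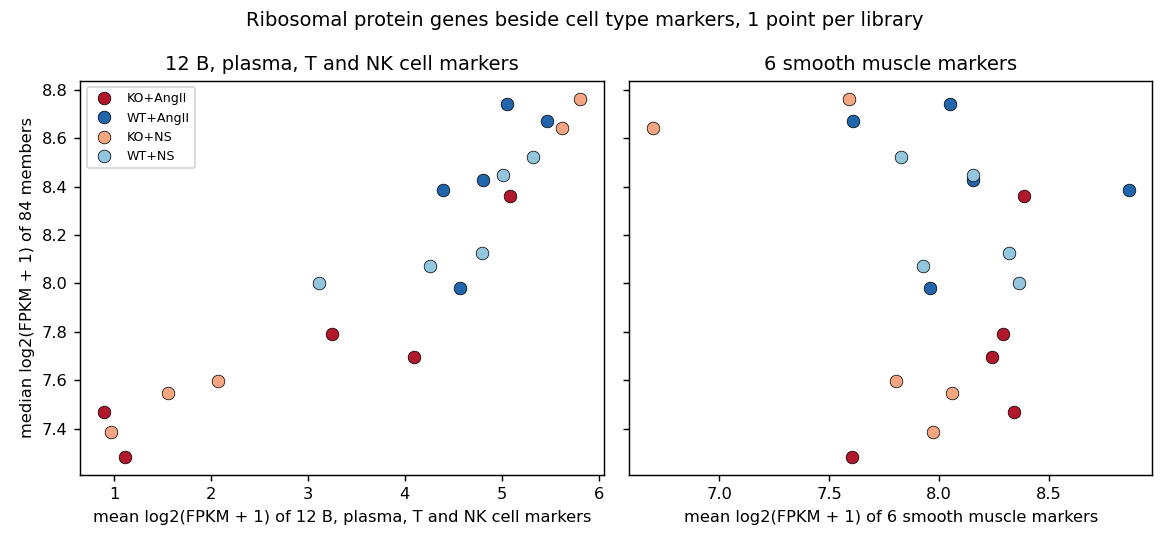
Median log2(FPKM + 1) of the 84 ribosomal protein genes tested (y axis) against the mean log2(FPKM + 1) of 12 B, plasma, T and NK cell markers and of 6 smooth muscle markers (x axes), with 1 point per library coloured by group. The 5 knockout libraries under 2.5 on the lymphocyte axis lie lowest on the y axis, while the smooth muscle markers show no such order.

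With the mean of the 12 lymphocyte markers as a covariate, an alternative added after the data were seen, the members' median difference averaged over both treatments was -0.07, and 4 members passed. They were Rps19 (log2 difference -0.51, adjusted p = 0.0109), Rps19bp1 (-0.39, 0.0245), Rpl28 (-0.37, 0.0294) and Rps27l (-0.45, 0.0154). Under AngII the median was -0.18 with 4 members called, Rps19 (-0.80, adjusted p = 0.0198), Rpl18 (-0.59, 0.0234), Rpl28 (-0.52, 0.0497) and Rpl27 (-0.51, 0.0478). Under saline the covariate turned the direction, to a median of 0.06 against -0.27 without it, with 0 members called by limma (4 at an unadjusted p under 0.05). Without the 5 libraries lowest in these markers, which also removes the lowest values of the members, 0 members passed on average (5 at an unadjusted p under 0.05) and the median was 0.00. Under AngII 0 passed by limma (42 at an unadjusted p under 0.05) and the median was -0.46, and under saline 0 passed by limma (26 at an unadjusted p under 0.05) and the median was 0.43, from 2 knockout libraries. The markers come from the same libraries as the members and were lower in the knockout, so these fits cannot say what part lymphocyte RNA has. Shares and medians over all genes or genes of like length are not given for these fits, so the counts may not be particular to the members. The part of lymphocyte, macrophage or brown adipocyte RNA in the result was not tested.

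Length went with the direction of change across the transcriptome. Among protein-coding genes other than the members, the median log2 difference averaged over both treatments was -0.29 for genes of 500 to 1000 bases, -0.20 for 1000 to 1500, -0.12 for 1500 to 2500, -0.02 for 2500 to 4000 and 0.10 above 4000 bases. For the 69 genes under 500 bases it was -0.34. In that class it was also -0.34 under AngII and under saline, where the members had -0.64 and -0.27. The median tested member is 793 bases long. When each library was centred on the median of genes of like length, 4 members passed on average over both treatments. The share of all genes called in that fit is not given here. The members' median difference was then -0.21 on average, against -0.44 without centring, -0.33 under AngII, against -0.64, and -0.12 under saline, against -0.27. GC content differed little, at 51.3% for the median member and 53.5% for genes of like length, and the members' median was -0.41, -0.43 and -0.52 in the low, middle and high class of GC, each of equal size. The part of length in the result was not tested.

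Genes that build, control or resemble the ribosome give the surroundings. Among 23 other TOP mRNAs and translation factors the median was -0.21 on average and -0.31 under AngII, and 0 passed in either (7 at an unadjusted p under 0.05 in each). The elongation factor genes Eef1b2 (-0.48), Eef1g (-0.38) and Eef2 (-0.36) had the smallest p-values there.

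Of 39 genes of ribosome assembly and rRNA synthesis, 2 fell, both on average and under AngII (5.13% in each, against 3.2% and 1.44% of all genes and 9.59% and 4.76% of the genes of like length), with medians of -0.20 and -0.34 over the list. They were Nop10, of the pseudouridylation complex (-0.58, adjusted p = 0.00691 on average), and Eif6, which keeps large subunits from joining too early (-0.42, adjusted p = 0.0448). The 78 mitochondrial ribosomal protein genes, which build a separate ribosome, had a median of -0.27 on average with 14 called lower (17.9%), among them Mrpl23 (-0.56, adjusted p = 0.00541) and Mrpl27 (-0.53, adjusted p = 0.00564). Their medians were -0.26 under AngII and -0.24 under saline, where those of the cytosolic genes were -0.64 and -0.27. The 77 tested subunits of oxidative phosphorylation, which are also short and abundant, had medians of -0.24 under AngII and -0.47 under saline, with 3 called on average (3.9%, near the 3.2% of all genes and under the 9.59% of the genes of like length). For the difference between the AngII effects of the genotypes the medians were -0.40 for the cytosolic ribosomal protein genes, -0.02 for the mitochondrial ones and 0.24 for the oxidative phosphorylation subunits, with 0 genes called in any of them by limma and 2, 1 and 1 at an unadjusted p under 0.05. Of 16 genes of mTORC1 and TOP control, 1 fell on average (6.25%), the stress-induced mTORC1 inhibitor Ddit4 (-1.28 ± 0.32, adjusted p = 0.0331), and the list's median was -0.03. Annotated ribosomal protein pseudogenes, of which 87 of 273 were tested, had medians of -0.40 on average and -0.54 under AngII, with 14 (16.1%) and 7 (8.05%) called lower, and reads may be split between them and the members.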

How the data were processed

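Total RNA of abdominal aorta was depleted of rRNA and sequenced, per the labels' protocols, which gave 20 libraries. The authors deposited FPKM per transcript model, 126719 per library, of which 110082 are Ensembl transcripts. The aligner, quantifier and strand setting: not given in the sources used here; the submitters' processing notes name mm10 and limma. Low values of longer transcripts are whole multiples of 1 read within 0.1 in 99.1% to 99.4% of cases, which gave the implied reads. FPKM were summed per gene through GENCODE M21 (109913 transcripts matched, 169 did not), and genes reaching 1 FPKM in 5 or more libraries entered the test as log2(FPKM + 1) with limma 3.58.1 (R 4.3.3, trend and robust, group means over all 20 libraries, two-sided, Benjamini-Hochberg over 15010 genes, threshold 0.05). A fold change on this scale understates that of low genes. The pseudocount of 1 moves most members little, since they are abundant. It weighs on the log2 differences of those near or under 1 FPKM in some libraries, such as Rps27a, Rpl17, Rpl29 and Rpl3l. Genes of like length are protein-coding genes between the 10th and 90th percentile of the members' lengths. Copies were found with BLAST 2.17.0. Tables and figures used Python 3.11.15, numpy 2.4.6, pandas 2.3.3 and matplotlib 3.10.9. The fit was tested on simulated data with independent noise for each gene. Those data lack the shared shifts between libraries seen here, so they do not show how calls behave under such shifts.

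The members and lists were chosen with earlier results of these data known. Named members are, per comparison, those past the threshold (at most 12) or, where fewer than 6 passed, the 6 with the smallest p, the 5 highest and lowest in level, the 5 most variable, and those under the filter, fixed paralogue pairs, Rpsa, stalk genes, Rpl7l1 and Rps19bp1; of each other list, up to 4 genes with the smallest p. Rpl23, Rpl32, Rps18 and Rps27rt were named after their values were seen. The alternatives were another pseudocount, other filters, 3 other scalings, protein-coding transcripts alone, voom on recovered reads, another variance model, the compared groups alone, the replicate number as a block, each library left out, and 3 that were added after the data were seen (a lymphocyte covariate, 5 libraries left out, copies added). Replicate numbers did not pair the samples. Unannotated transcript models were not used. A few members and related genes are not reported here by name, though they stay in the fits, counts and medians.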

Additional observations from a re-analysis of the deposited data

Results flagged for a closer look

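For 40 named members and 4 summary measures of the family (summed level, share of FPKM, median level and share in copies), 176 groups of 5 were examined for a library far from the other 4, by Dixon's ratio above 0.71, and 15 had one. For independent, normally distributed values chance gives such a library in about 1 of 20 groups. The members moved together and some were named for their wide spread, so the 15 cannot be set against that rate.

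In KO+AngII, library 4 stood above the others for Rpl35a (263.3 against 149.0 to 168.0 FPKM), Rps2 (613.9 against 397.4 to 459.0 FPKM) and Rps3a1 (899.6 against 384.2 to 527.4 FPKM); this is also the KO+AngII library with the highest lymphocyte markers. In the same group library 1 was high for Rpl3l (35.68 against 0.00973 to 2.339 FPKM). In WT+AngII, library 3 was low for Rpl10 (253.6 against 375.3 to 422.9 FPKM) and library 2 high for Rpl21 (37.48 against 3.985 to 9.389 FPKM) and Rpl3l (28.85 against 0.07518 to 7.659 FPKM). In KO+NS, library 3 was high for Rpl22l1 (122.6 against 54.64 to 73.67 FPKM) and Rpl29 (28.58 against 0.5003 to 7.553 FPKM) and library 2 for Rpl21 (49.62 against 6.779 to 13.28 FPKM). In WT+NS, library 4 was high for Rpl7l1 (33.2 against 24.51 to 25.37 FPKM) and Rps28 (194.5 against 145.3 to 157.8 FPKM), library 1 for Rpl21 (32.71 against 1.902 to 9.608 FPKM), library 2 for Rpl29 (131.3 against 2.46 to 26.22 FPKM) and library 5 for Rpl3l (71.6 against 0.04715 to 15.76 FPKM). Rpl21 and Rpl29 have abundant copies, and Rpl3l was high in libraries with much skeletal muscle marker RNA.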

How the results depend on the processing

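Of 470 values from 14 results and 34 other settings, 415 kept their direction and side of the threshold, or stayed within 1.5 times a count or 1 SD between replicates of a median. That SD was 0.43 on the log2 scale, about the size of the median of -0.44. A median could thus fall close to 0 and still be kept, so this share says little of the medians' size. The rule kept 230 of 235 medians and 185 of 235 counts, among them counts of comparisons with 0 calls throughout. For the knockout against the wild type averaged over both treatments, 10 members were called, against 4 with centring on genes of like length, 4 with the lymphocyte covariate, 4 with the replicate block, 2 after quantile normalization and 0 without the 5 libraries lowest in lymphocyte markers, where the median was 0.0026 in place of -0.44. Leaving out 1 library gave 3 to 32. For none of these settings, nor for those under AngII that follow, is the share of all genes called given here. Under AngII, 4 members were called, against 8 with a filter at 5 FPKM, 2 with copies added, 2 after quantile normalization, 1 without a filter, 1 with protein-coding transcripts alone, and 0 with the compared groups alone, voom, the replicate block, or without those 5 libraries; leaving out 1 library gave 0 to 13, and the median was -0.18 with the covariate. Without those 5 libraries the median also moved to 0.43 under saline, -0.71 for AngII within the knockout and -0.88 for the interaction. Scaling moved the medians while staying within 1 SD between replicates: centring on genes of like length gave -0.21 on average, -0.33 under AngII, -0.12 under saline, -0.12 for AngII within the knockout, 0.08 within the wild type and -0.23 for the interaction, and quantile normalization -0.24, -0.36, -0.15, -0.11, 0.10 and -0.22 in the same order, where the unscaled medians were -0.44, -0.64, -0.27, -0.20, 0.18 and -0.40. The covariate gave -0.07 on average, 0.06 under saline, -0.12 for AngII within the knockout, 0.10 within the wild type and -0.22 for the interaction. Leaving out 1 library gave medians of -0.54 to -0.37 on average, -0.79 to -0.56 under AngII, -0.47 to -0.13 under saline, -0.34 to 0.01 for AngII within the knockout, 0.10 to 0.31 within the wild type and -0.55 to -0.18 for the interaction. The cause was not tested. The other 5 comparisons called 0 members in every setting run. Same-numbered libraries had correlated deviations in 10 of 30 pairs (r above 0.1, range -0.523 to 0.412), and 3 of 20 libraries correlated best with their own number, so the numbers give no pairing. Depth was similar across libraries; the median member had a mean of 17162 reads.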
